A study of Mus musculus with 6 samples.

Results

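The genes described here are 9 of the insulin-like growth factor (IGF) axis: the ligand gene Igf1, the receptor genes Igf1r and Insr, and the binding-protein genes Igfbp2, Igfbp3, Igfbp4, Igfbp5, Igfbp6 and Igfbp7. They were taken by symbol from a table of 55487 genes, and all 9 passed the filter on low counts that left 16962 genes for testing. RNA came from wild-type MEFs, mouse embryonic fibroblasts, which are connective-tissue cells cultured directly from embryos. Cells at passage 1 (P1) were labelled non-senescent and cells at passage 6 (P6) senescent, a passage being one replating of the culture. At each passage there was 1 library of vehicle-treated cells, 1 of cells given 20 µM α-amyrin and 1 of cells given 20 µM β-amyrin for 3 days, so 6 libraries in all and no replicate of any condition. Whether libraries of the same passage were made from different dishes or embryos is not in the labels, nor is whether P6 descended from the isolate sampled at P1. The p-values therefore measure only the spread among these 6 libraries, and a difference between the passages cannot be told apart from one between isolates.

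IGF1 and IGF2 are secreted growth factors that signal through the IGF1 receptor, a tyrosine kinase of the cell surface, and the closely related insulin receptor binds insulin and can pair with it in hybrid receptors. IGF-binding proteins are secreted proteins that hold IGFs outside the cell, which can keep the ligand from its receptor or prolong its life, and proteases release it again. Several of them, IGFBP3, IGFBP5 and IGFBP7 among them, are known as factors that senescent cells can secrete.

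The start regions of the members that moved furthest between the passages are printed first, at a start that RefSeq annotates. That of Igfbp4 is added because it alone among the 8 matched members carries the letters TATAAA close to its start. Each is 100 bases of RefSeq's GRCm38.p6 (mm10) sequence on the gene's own strand, 5′ to 3′, from 80 bases before the annotated start to 20 after it. Capitals mark TATAAA, searched on the sense strand from 50 to 11 bases before the start, and the GC box GGGCGG on either strand (CCGCCC where it lies on the other). The windows are chr10:87861031-87861130 for Igf1 and chr15:102144106-102144205 for Igfbp6, both on the plus strand. The Igf1 window lies inside the annotated gene, which begins at 87858265, so it holds a start other than the first one. They are chr5:77408026-77408125 for Igfbp7, chr1:72874846-72874945 for Igfbp5 and chr11:7213904-7214003 for Igfbp3, all on the minus strand. For Igfbp4 the window is chr11:99041164-99041263 on the plus strand.
Igf1: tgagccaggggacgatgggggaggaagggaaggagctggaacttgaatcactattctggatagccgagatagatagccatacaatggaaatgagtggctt
Igfbp7: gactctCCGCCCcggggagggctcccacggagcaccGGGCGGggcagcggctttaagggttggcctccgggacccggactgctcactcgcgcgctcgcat
Igfbp5: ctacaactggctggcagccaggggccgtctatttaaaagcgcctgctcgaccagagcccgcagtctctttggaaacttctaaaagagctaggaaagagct
Igfbp6: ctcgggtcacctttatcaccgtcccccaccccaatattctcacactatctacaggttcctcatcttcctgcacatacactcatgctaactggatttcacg
Igfbp3: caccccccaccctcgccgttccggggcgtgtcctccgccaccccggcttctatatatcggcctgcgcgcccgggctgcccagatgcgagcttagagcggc
Igfbp4: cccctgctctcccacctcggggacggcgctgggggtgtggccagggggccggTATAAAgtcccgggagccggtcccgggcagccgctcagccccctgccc

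RefSeq promoters of 300 bases (250 before the start and 50 after) were matched for 8 of the 9 members, all but Insr, with a pair of starts for Igfbp2. TATAAA began 28 bases before the start of Igfbp4, and no other matched member had it in the part searched, where it lay in 2.40% of all 32851 promoters of the table. The GC box, on either strand, was found 4 times at Igfbp7, 3 times at the upstream start of Igfbp2 and 2 times at Igf1r, and 35.7% of all promoters held it. The letters CCAAT, read on both strands, occurred 2 times at Igfbp6 and once at Igf1, against 37.4% of all promoters with a match. TGTTTAC on either strand, the core of the site that FoxO transcription factors bind, was in none of the member windows and in 3.65% of all promoters. GC content ran from 49.7% at Igfbp6 and 52.3% at Igf1 to 73.3% at Igfbp7 and 76.0% at Igf1r. The Igf1 values are those of the start inside the gene. A match describes the letters only, and a window without one says nothing of the factor.

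Total counts ran from 18798418 to 28752332 per library and mitochondrial genes took 1.55% to 1.81% of them. All 15 fibroblast markers examined were detected (2 called higher and 10 lower at P6). Their summed levels were 40111 to 48998 counts scaled to library size (CPM) at P1 and 54425 to 61052 at P6. Of these sums Fn1 gave 10795 to 13589 CPM at P1 and 28955 to 30466 at P6. The other marker called higher, S100a4, was at 7.48 to 10.9 and 14.2 to 15.9 CPM. Other cell types' markers differed between the passages too. The 20 macrophage markers summed to 48.7 to 414 CPM at P1 and to 4273 to 6142 at P6, and all 20 were called higher. Mesothelial markers (8 genes) were at 214 to 267 CPM at P1 and 12.4 to 14.3 at P6, cartilage and bone markers (12 genes) at 487 to 537 and 140 to 210, and muscle markers (11 of 12 detected) at 105 to 120 and 12.8 to 19.2. Of the cartilage and bone sums Col2a1 gave 389 to 440 CPM at P1 and 91.7 to 152 at P6. Endothelial markers were at 38.1 to 42.4 and 14.6 to 30.6 CPM, with Cldn5 at 0 counts in every library. Of the 5 tested, 4 were called lower and 1, Vwf, higher. Vwf was at 0.241 to 1.12 CPM at P1 and 4.62 to 18.1 at P6, and gave 18.1 of the 30.6 CPM in the P6 β-amyrin library. Epithelial markers were at 15.2 to 19.1 and 0.465 to 1.47 CPM. Adipocyte markers were at 42.6 to 109 and 320 to 618 CPM, of which Lpl gave 33.6 to 96.2 and 274 to 578. Adipoq, Cidec, Lep and Cfd were at 0. The 4 adipocyte markers tested, Lpl, Cebpa, Pparg and Fabp4, were all called higher. Cebpa was at 5.91 to 8.63 CPM at P1 and 24.3 to 35.4 at P6. In such bulk libraries fewer cells of a type and less RNA per cell cannot be told apart.

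The first comparison was between P6 and P1. Igf1 RNA was 3.83-fold higher at P6 and Igfbp7 RNA 1.88-fold higher, while Igfbp5 RNA was 2.39-fold lower and Igfbp6 and Igfbp3 were lower by smaller amounts. Igf1r, Insr and Igfbp2 were slightly higher, and Igfbp4 was not called. Counts were tested with the quasi-likelihood test of edgeR, with passage and treatment as additive terms over the 6 libraries. A gene was called at a Benjamini-Hochberg adjusted p below 0.05 over all genes tested. By this rule 8 of the 9 members were called, 5 higher and 3 lower, where 59.2% of all genes were called, 30% higher and 29.1% lower. With so large a share of genes called, the sizes of the changes say more about the members than their calls. The median log2 fold change of the 9 was 0.26, beside 0.0024 over all genes. The 3 P6 values lay wholly outside the 3 P1 values for 7 members, the exceptions being Igfbp2 and Igfbp4, and for 64.7% of all genes. In pairs of single libraries with the same treatment, 2 members differed at least 2-fold with vehicle (Igf1 and Igfbp5), 3 with α-amyrin (also Igfbp7) and 2 with β-amyrin, where 13.2%, 13.5% and 13.4% of genes with at least 5 CPM did.

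**Figure D1:**
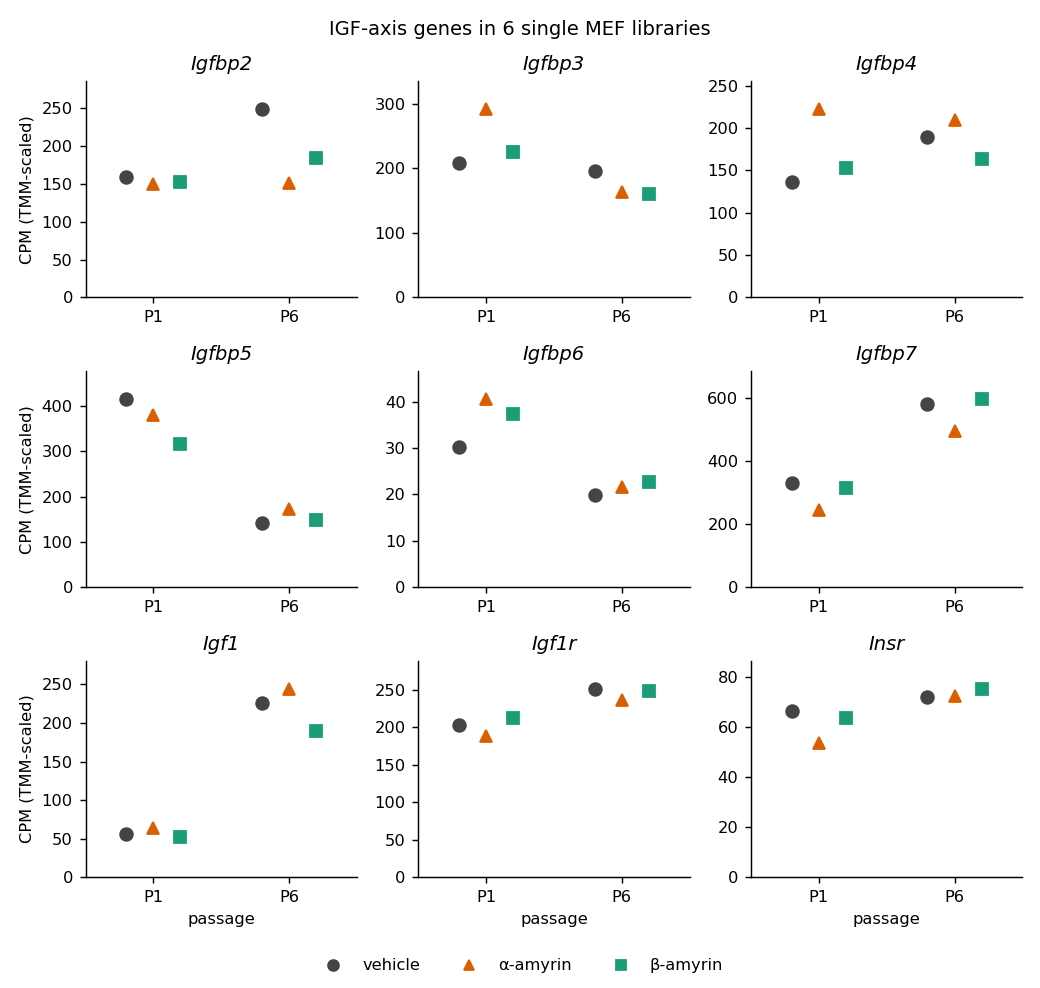
TMM-scaled CPM (vertical axis, from 0) of the 9 genes in the 6 single libraries, by passage, with circles for vehicle, triangles for α-amyrin and squares for β-amyrin. The P6 values of Igf1 (189 to 244) and Igfbp7 (495 to 595) sit above all their P1 values, those of Igfbp5 (142 to 173) sit below theirs, and the passages overlap for Igfbp2 and Igfbp4.

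Igf1 encodes the secreted ligand IGF1 (ENSMUSG00000020053, mm10 chromosome 10, 87858265 to 87937042, plus strand). In order of vehicle, α-amyrin and β-amyrin, as for every such triplet here, its level was 55.9, 64.2 and 51.7 CPM at P1 and 226, 244 and 189 CPM at P6. All P6 libraries were therefore above all P1 libraries, and within a passage the highest stood only 1.24-fold (P1) and 1.29-fold (P6) above the lowest. The log2 fold change was 1.94 ± 0.05 (SE, edgeR adjusted p = 1.71e-06), a 3.83-fold rise. It ranked 28th by p among the 16962 genes, and in the vehicle pair 4.10% of genes with at least 5 CPM moved as far or further. The 3 P6-over-P1 ratios taken within a treatment were close to each other, at log2 2.01 for vehicle, 1.92 for α-amyrin and 1.87 for β-amyrin.

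Macrophages are a known source of IGF1, and the macrophage markers moved with Igf1 between the passages, by a median log2 fold change of 4.16 over the 20 genes with none at 0 in any library. The marker sums were 414, 364 and 48.7 CPM at P1 and 6020, 6142 and 4273 CPM at P6, and at both passages the sum and Igf1 were lowest with β-amyrin. At P1 the sizes differed, the sum being 8.50-fold below vehicle in the β-amyrin library and Igf1 at 51.7 against 55.9 CPM. How much of the difference between the passages such cells account for was not tested.

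The other ligand, IGF2, went the opposite way. Igf2, a fetal growth factor that is imprinted in the mouse, fell from 116, 175 and 150 CPM at P1 to 9.05, 12.5 and 11.3 CPM at P6, a log2 fold change of -3.74 ± 0.06 (edgeR adjusted p = 3.32e-07). Per length, on the scale of the deposited FPKM, Igf2 stood 4.90, 5.88 and 6.19 times above Igf1 at P1. In the P6 libraries Igf1 stood 10.6, 8.58 and 7.80 times above Igf2. With CPM per kilobase of annotated exon length in place of FPKM, Igf2 stood 3.58, 4.72 and 5.03 times above Igf1 at P1. On that scale Igf1 stood 14.4, 11.3 and 9.67 times above Igf2 at P6. The order of both ligand RNAs was thus inverted in all 3 treatments, while the sizes depended on the scale.

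Per length, on the FPKM scale, Igfbp7 had the highest level of the binding-protein genes in every library. Its protein, also called angiomodulin, binds IGFs more weakly than the other members of the family and is a component of the extracellular matrix. The gene (ENSMUSG00000036256, chromosome 5, 77349240 to 77408041, minus strand) was at 330, 246 and 315 CPM at P1 and at 580, 495 and 595 CPM at P6. The lowest value at each passage was that of the α-amyrin library. From P1 to P6 it rose by 0.91 ± 0.05 on the log2 scale (adjusted p = 1.81e-05), or 1.88-fold, and its range was 1.76-fold to 2.01-fold over the 3 treatment pairs. Igfbp7 overlaps Polr2b on the opposite strand, a gene with 1705 to 3078 counts per library. The sources used here do not say whether counting used strand. Polr2b had 2762 to 3078 counts at P1 and 1705 to 2410 at P6, not scaled to library size. Whether its reads entered the Igfbp7 counts was not tested.

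Igfbp5 moved furthest downward. IGFBP5 is a binding protein that associates with extracellular matrix and, like IGFBP3, can form a large circulating complex with an IGF and the acid-labile subunit. Its gene (ENSMUSG00000026185, chromosome 1, 72857932 to 72874884, minus strand) was at 415, 380 and 317 CPM at P1 and at 142, 173 and 149 CPM at P6. The lowest P1 library was well above the highest P6 library. The log2 fold change was -1.26 ± 0.09 (adjusted p = 4.45e-05), a level 2.39-fold lower. The drop was larger in the vehicle pair (log2 -1.54) than with α-amyrin (-1.14) or β-amyrin (-1.09).

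Igfbp6 and Igfbp3 fell less. IGFBP6 is a binding protein with a preference for IGF2, and its gene (ENSMUSG00000023046, chromosome 15, 102144362 to 102149511, plus strand) had 405 to 1192 counts per library. The lowest of these counts, 405 in the P6 α-amyrin library, has a 95% Poisson interval of 367 to 446, which covers counting error only. Igfbp6 was at 30.3, 40.5 and 37.2 CPM at P1 and at 19.9, 21.5 and 22.8 CPM at P6, with a log2 fold change of -0.74 ± 0.08 (adjusted p = 0.0002). Every P6 value was below every P1 value. IGFBP3 is the main IGF carrier of the blood and is induced by p53 and TGF-β in many cells. Igfbp3 (ENSMUSG00000020427, chromosome 11, 7206086 to 7213923, minus strand) was at 208, 292 and 226 CPM at P1 and at 196, 164 and 161 CPM at P6.

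The P6 vehicle library came close to the P1 vehicle library for Igfbp3, and the difference lay mostly in the amyrin libraries. The log2 ratio was -0.08 for vehicle, -0.83 for α-amyrin and -0.49 for β-amyrin. The fitted fold change of -0.47 ± 0.13 (adjusted p = 0.0156) was lost without the P1 α-amyrin library (-0.29, adjusted p = 0.0606), without the P6 α-amyrin library (-0.28, adjusted p = 0.0573) and with DESeq2 (adjusted p = 0.0871). Markers of mesothelial, muscle, and cartilage and bone cells were lower at P6 too. Of those tested, 8 of 8, 7 of 8 and 8 of 9 were called lower, with 0, 0 and 1 (Comp) called higher. Lower calls were also made for 4 of 5 endothelial, 3 of 4 epithelial and 10 of 15 fibroblast markers, with 1, 0 and 2 called higher. Over all genes 29.1% were called lower and 30% higher. In the vehicle pair the mesothelial sum went from 214 to 12.4 CPM, and Igfbp3 from 208 to 196 CPM. Defining markers of muscle precursors, Myf5 and Pax7, were at 0 in every library and in 5 of the 6, respectively. The muscle regulators Myod1 (0.0804 to 0.230 CPM) and Myog (0.230 to 0.402 CPM) were detected in every P1 library and were at 0 at P6. The part of these cells in the lower Igfbp levels was not tested.

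Igfbp2 and Igfbp4 did not separate the passages. IGFBP2 is a fetal binding protein that also contacts integrins, and IGFBP4 is an inhibitor of IGF action that the protease PAPP-A cleaves. Igfbp2 (ENSMUSG00000039323, chromosome 1, 72824503 to 72852474, plus strand) was at 159, 149 and 152 CPM at P1 and at 248, 151 and 183 CPM at P6. The 3 P1 libraries were nearly level, and only the P6 vehicle library stood well above them. The fit called it higher by 0.31 ± 0.11 (adjusted p = 0.0397). That call rested on both vehicle libraries, because the log2 fold change was 0.13 without the P1 one (adjusted p = 0.209) and 0.14 without the P6 one (adjusted p = 0.185). Igfbp2 was not called by edgeR with passage as the only term (adjusted p = 0.0852), by DESeq2 (adjusted p = 0.152), or by limma on the deposited FPKM (adjusted p = 0.116 with 1 added before the logarithm).

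Igfbp4 (ENSMUSG00000017493, chromosome 11, 99041244 to 99054392, plus strand) was at 136, 222 and 153 CPM at P1 and at 189, 210 and 163 CPM at P6. The highest value of all 6 was the P1 α-amyrin library and the lowest the P1 vehicle library. The passage difference was 0.16 ± 0.10 with a 95% interval of -0.07 to 0.39 (adjusted p = 0.199). It was called without the P6 α-amyrin library (0.29, adjusted p = 0.0483).

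**Figure D2:**
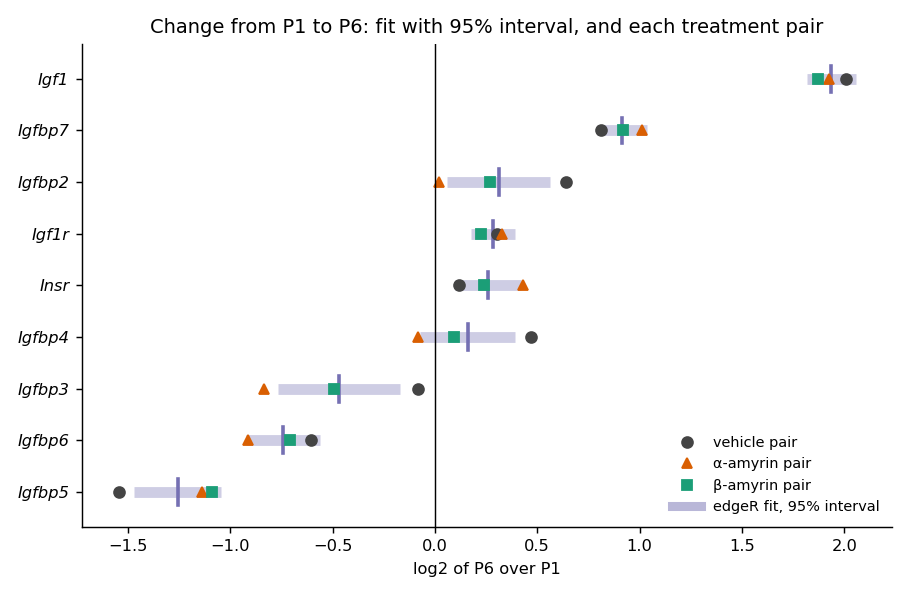
Log2 of P6 over P1 (horizontal axis) for the 9 genes: the vertical tick and the bar are the edgeR estimate and its 95% interval, and the points are the ratios of single libraries within vehicle, α-amyrin and β-amyrin. The 3 pairs are close together for Igf1 (1.87 to 2.01) and spread from 0.02 to 0.64 for Igfbp2 and from -0.83 to -0.08 for Igfbp3.

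Both receptor genes rose a little. Igf1r, the gene of the IGF1 receptor (ENSMUSG00000005533, chromosome 7, 67952827 to 68233668, plus strand), was at 203, 188 and 212 CPM at P1 and at 251, 236 and 248 CPM at P6. Its log2 fold change of 0.28 ± 0.04 (adjusted p = 0.00143) is a 1.22-fold rise, and all P6 values were above all P1 values. Insr, the gene of the insulin receptor (ENSMUSG00000005534, chromosome 8, 3122061 to 3279617, minus strand), was at 66.7, 53.8 and 63.8 CPM at P1 and at 72.3, 72.5 and 75.3 CPM at P6. Its change was 0.26 ± 0.07 (adjusted p = 0.0140), and it was lost without the P1 α-amyrin library (0.18, adjusted p = 0.0688), without the P6 α-amyrin library (0.18, adjusted p = 0.0602) and with limma on FPKM (adjusted p = 0.0621). In the vehicle pair 54.4% of genes moved as far as Igf1r and 80.9% as far as Insr, so both changes were of ordinary size. Per length, Igf1r RNA stood 2.48 to 2.85 times above Insr RNA at P1 and 2.65 to 2.88 times at P6, on the scale of the deposited FPKM.

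Levels of the members were set against each other per length, with the deposited FPKM. At P1 the mean over the 3 libraries ran from 245 FPKM for Igfbp7 through 83.2 for Igfbp2, 79.8 for Igfbp3, 64.4 for Igfbp5, 39.4 for Igfbp4, 32.0 for Igfbp6, 12.4 for Igf1r and 6.17 for Igf1 to 4.62 for Insr. Of neighbours in that order, Igfbp2 and Igfbp3, Igfbp3 and Igfbp5, and Igfbp4 and Igfbp6 overlapped in their ranges over the libraries. At P6 the order was Igfbp7 (456), Igfbp2 (104), Igfbp3 (56.4), Igfbp4 (42.7), Igfbp5 (26.5), Igf1 (23.4), Igfbp6 (18.9), Igf1r (14.7 to 15.4 over the libraries) and Insr (5.50). There Igfbp5 and Igf1 were the only neighbours with overlapping ranges. On the FPKM scale Igf1 thus passed both Igf1r and Igfbp6 between the passages. With CPM per kilobase of annotated exon length, the P6 levels of Igf1 were 22.8, 24.6 and 19.1. Those of Igfbp6 were 17.9, 19.3 and 20.5 on that scale, so the ranges overlapped and Igf1 stayed below Igfbp6 with β-amyrin.

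The makeup of the binding-protein RNA shifted toward Igfbp7. The 6 genes summed to 554, 546 and 533 FPKM at P1 and to 762, 640 and 713 FPKM at P6. Igfbp7 made up 49.1%, 38.0% and 48.2% of that sum at P1 and 62.8%, 63.6% and 67.6% at P6. Igfbp5 went from 12.9%, 12.3% and 10.3% to 3.19%, 4.66% and 3.56%, and Igfbp6 from 4.80%, 6.82% and 6.03% to 2.34%, 3.05% and 2.71%. The share of Igfbp3 was 12.2%, 18.0% and 13.8% at P1 and 8.39%, 8.35% and 7.26% at P6. The shares of Igfbp2 (15.3%, 15.3% and 15.3%, then 17.6%, 12.8% and 13.7%) and Igfbp4 (5.62%, 9.60% and 6.48%, then 5.67%, 7.55% and 5.13%) overlapped between the passages. The sum of binding-protein RNA stood 15.9, 11.3 and 13.3 times above the summed Igf1 and Igf2 RNA at P1 and 29.2, 22.1 and 31.1 times at P6. With CPM per kilobase of annotated exon length it stood 21.4, 14.2 and 17.0 times above at P1 and 31.2, 23.9 and 34.4 times at P6, a smaller gap between the passages. These are ratios of RNA levels and say nothing of protein amounts.

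**Figure D3:**
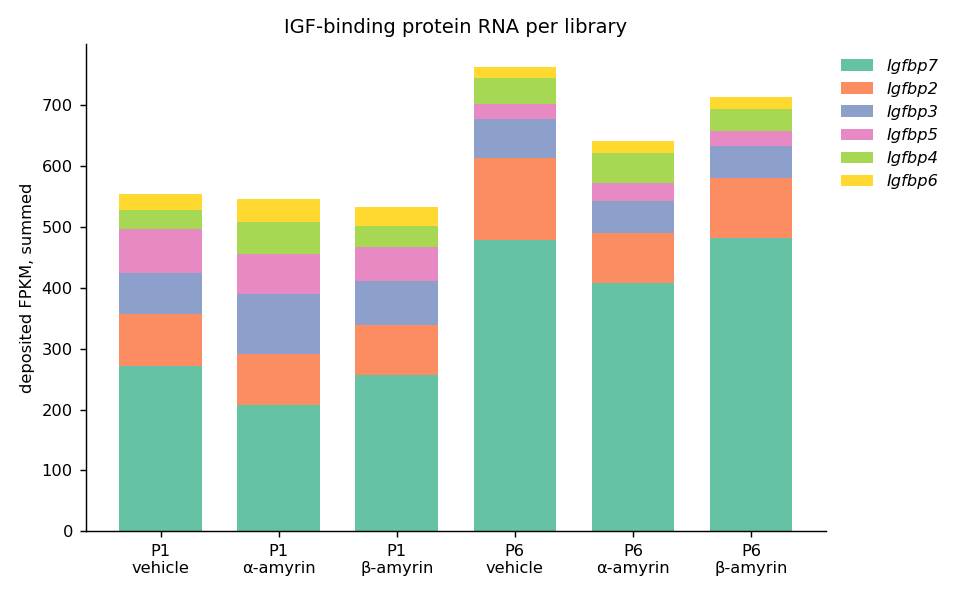
Deposited FPKM of the 6 binding-protein genes, stacked from 0 for each single library. Igfbp7, at the bottom, takes 38.0% to 49.1% of each P1 column and 62.8% to 67.6% of each P6 column, and the Igfbp5 segment is narrower at P6.

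Igfbp2 and Igfbp5 lie tail to tail on chromosome 1, with 5457 bases between them, and they went in opposite directions, 0.31 and -1.26 on the log2 scale. Igfbp3 lies 3539 bases from Igfbp1, which had 0 counts in all 6 libraries. A count of 0 allows up to 3 counts per library, by a 95% Poisson bound taken on the upper side alone. Other neighbours did not share the members' changes in any regular way. Top2a, a topoisomerase of dividing cells that lies 17054 bases from Igfbp4, fell by 1.29 ± 0.05 (adjusted p = 4.53e-06), while Igfbp4 was not called. Arhgef18, which lies 73797 bases from Insr, rose by 0.40 ± 0.06 (adjusted p = 0.000925). Of protein-coding genes that do not overlap Igfbp7, the nearest on each side were Noa1 (39155 bases away) and Adgrl3 (3612096 bases away). Noa1 fell by 0.35 ± 0.09 (adjusted p = 0.0141) and Adgrl3 by 0.83 ± 0.07 (adjusted p = 7.56e-05).

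Genes with the most similar pattern were found by the root mean square distance of log2 CPM over the 6 libraries, each gene centred on its mean. The nearest to Igf1r were Src (0.01) and H13 (0.02), and the nearest to Insr were Tmem208 and B4galt3 (both 0.03). Igf1 had less close matches, Svop and Man2b2 (both 0.10). Deptor and Cd34 were nearest to Igfbp4 (0.05 and 0.09), and Deptor was at 8.44, 13.6 and 9.69 CPM at P1 and 12.0, 12.1 and 10.1 CPM at P6. Pde10a was nearest to Igfbp2 and Ebf3 to Igfbp3 (both 0.07), Kif2c to Igfbp5 (0.07), Gm41396 to Igfbp6 (0.05) and Rnf128 to Igfbp7 (0.06). Within the 9 members the closest pair was Igf1r and Insr, at 0.07. The distance was not scaled to the size of a gene's changes, so genes that vary little come out close more readily.

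The second question was whether either amyrin moved these genes. Both amyrins are plant triterpenes with the same atoms, α-amyrin built on the ursane skeleton and β-amyrin on the oleanane one, which differ in where a methyl group sits on the last ring. No member was called for α-amyrin against vehicle by edgeR, where 0.0295% of all genes were called (0.0118% higher and 0.0177% lower), although 5 of the 9 had an unadjusted p below 0.05, as had 1995 of 16962 genes. DESeq2 called Igfbp7 alone and limma called none. No member was called for β-amyrin against vehicle by edgeR, DESeq2 or limma, where edgeR called 0.0059% of all genes (0.0059% higher and 0% lower). Here 2 members and 1739 genes had an unadjusted p below 0.05.

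Igfbp7 had the smallest p of the 9 for α-amyrin. The α-amyrin library was below the vehicle library at both passages, at 246 against 330 CPM at P1 and 495 against 580 at P6, while β-amyrin stood at 315 and 595 CPM. The fitted log2 fold change was -0.33 ± 0.06, with a 95% interval of -0.47 to -0.18 (edgeR adjusted p = 0.160). DESeq2 called it (adjusted p = 0.00393), as did edgeR without the P1 β-amyrin library (adjusted p = 0.0154) or the P6 β-amyrin library (adjusted p = 0.0123), and without the filter on low counts (adjusted p = 0.000751).

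Igfbp4 was the member furthest above vehicle with α-amyrin. At P1 it went from 136 to 222 CPM, a log2 ratio of 0.70 that only 1.44% of genes with at least 5 CPM matched in size. At P6 the ratio was 0.15. Over both passages the fit gave 0.42 ± 0.12, with an interval of 0.14 to 0.71 (adjusted p = 0.289). It was called without the P1 β-amyrin library (adjusted p = 0.0459) or the P6 β-amyrin library (adjusted p = 0.0401), and without the filter (adjusted p = 0.00268).

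Igfbp2 with α-amyrin lay at 151 against 248 CPM at P6, a log2 ratio of -0.71 that 1.05% of genes matched in size, but at P1 it lay at 149 against 159 CPM (-0.09). With β-amyrin the ratios were -0.44 at P6 and -0.07 at P1. All of these P6 ratios share the P6 vehicle library, which was also the highest of the 6 for Igfbp2. The fits over both passages gave -0.41 ± 0.13 for α-amyrin (adjusted p = 0.327) and -0.26 ± 0.13 for β-amyrin (adjusted p = 0.537), and the α-amyrin value was called without the filter (adjusted p = 0.00726).

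Igfbp3 lay above vehicle at P1 with α-amyrin (log2 0.49, 292 against 208 CPM) and below it at P6 (-0.26, 164 against 196 CPM). With β-amyrin it was at 0.12 and -0.29. Igfbp5 with β-amyrin was at -0.39 at P1 and 0.07 at P6. Igfbp6 was above vehicle in all 4 pairs, by log2 0.11 to 0.42. For α-amyrin at P6 the 95% interval of counting error alone ran from -0.08 to 0.30. The α- and β-amyrin pairs of a passage also share a vehicle library. The fits for Igfbp6 gave 0.28 ± 0.09 for α-amyrin (adjusted p = 0.331) and 0.25 ± 0.09 for β-amyrin (adjusted p = 0.463). For Igf1 the fits gave 0.15 ± 0.06 with α-amyrin (adjusted p = 0.385) and -0.19 ± 0.06 with β-amyrin (adjusted p = 0.417). Igf1r ran from -0.11 to 0.06 over the 4 pairs, and Insr was at -0.31 with α-amyrin at P1 and from -0.06 to 0.06 in the others. In none of the 4 pairs did a member differ at least 2-fold. Of genes with at least 5 CPM, 0.481% did with α-amyrin at P1, 0.361% with α-amyrin at P6, 0.898% with β-amyrin at P1 and 0.872% with β-amyrin at P6.

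**Figure D4:**
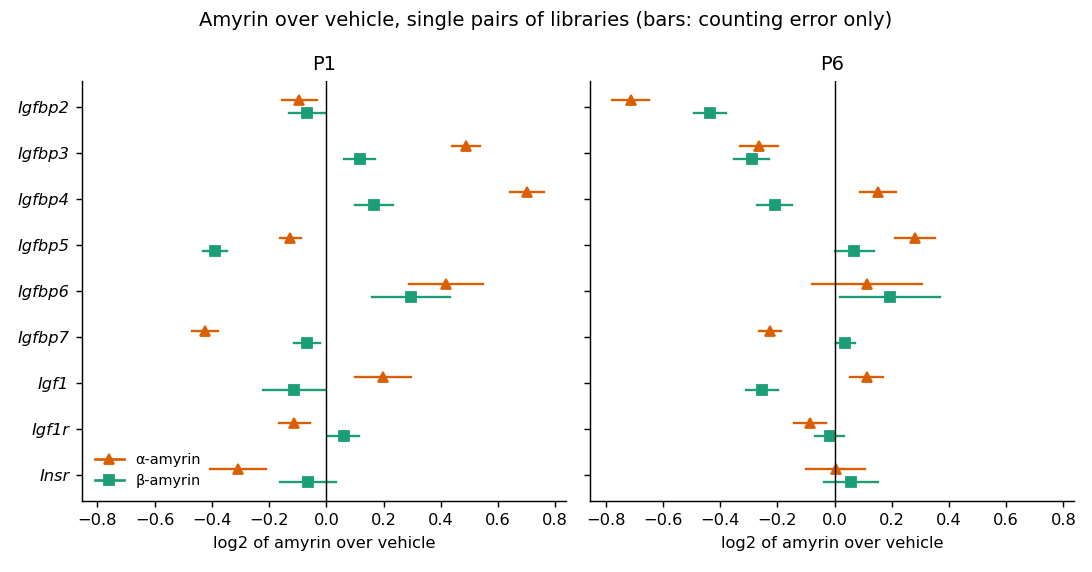
Log2 of amyrin over vehicle (horizontal axis) for single pairs of libraries at P1 and P6, with triangles for α-amyrin, squares for β-amyrin and bars for the 95% interval of counting error only. The furthest points are Igfbp4 with α-amyrin at P1 (0.70) and Igfbp2 with α-amyrin at P6 (-0.71), and each is nearer to 0 at the other passage.

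The isomers were compared directly at the same dose and time, as 1 pair of compounds with p-values adjusted over all genes. No member was called by edgeR for α-amyrin against β-amyrin, where 0.059% of genes were called (0.0472% higher with α-amyrin and 0.0118% lower). Nor did a member differ 2-fold between the isomers in a pair of libraries, where 1.1% of genes did at P1 and 0.673% at P6. An unadjusted p below 0.05 was found for 3 members and 1563 genes, and DESeq2 called those 3 members. Igf1 was higher with α-amyrin than with β-amyrin at both passages, at 64.2 against 51.7 CPM and 244 against 189 CPM. The difference was 0.34 on the log2 scale with an interval of 0.20 to 0.48 (edgeR adjusted p = 0.166, DESeq2 0.0102), and edgeR called it without the P1 β-amyrin library (0.39, adjusted p = 0.0485). The summed macrophage markers were higher with α-amyrin as well, at 364 against 48.7 CPM and 6142 against 4273 CPM, and their part in this difference was not tested.

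Igfbp4 was likewise higher with α-amyrin at both passages, by 0.46 with an interval of 0.17 to 0.74 (edgeR adjusted p = 0.327, DESeq2 0.0463). Igfbp7 was lower with α-amyrin at both passages, by -0.31 with an interval of -0.46 to -0.16 (edgeR adjusted p = 0.223, DESeq2 0.0114). For the other 6 members the intervals of the difference included 0. They were -0.45 to 0.17 for Igfbp2, -0.15 to 0.57 for Igfbp3, -0.02 to 0.49 for Igfbp5, -0.19 to 0.25 for Igfbp6, -0.25 to 0.01 for Igf1r and -0.35 to 0.05 for Insr. Those widths do not show that the isomers act alike on these genes.

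Whether the response to amyrin differed between the passages was tested by treating both amyrin libraries at each passage as samples of 1 amyrin group. No member and 0% of all genes were called by edgeR, with an unadjusted p below 0.05 for 2 members and 451 genes, and neither DESeq2 nor limma called a member. Those 2 were Igfbp3 (-0.59 ± 0.21) and Igfbp2 (-0.49 ± 0.17), both lower with amyrin at P6 than at P1 relative to vehicle. Igfbp3 was called only without the filter on low counts (-0.61, adjusted p = 0.00352).

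The rest of the pathway was followed in 7 lists of genes, and 101 of their genes were tested. Of these, 68 were called between P6 and P1, beside the 59.2% of all genes called, 30% higher and 29.1% lower. In the list of ligands, receptors and carriers, 6 of 11 genes were tested, 5 were called lower and none higher, with a median of -0.53. Besides Igf2 these included Igf2bp1 (-1.04 ± 0.05, adjusted p = 1.55e-05) and Igf2bp2 (-0.60 ± 0.06, adjusted p = 0.00017), which bind RNA, the transcripts of Igf2 among them. Igf2r, whose protein takes IGF2 to the lysosome and does not signal as a kinase, was at 1028, 887 and 906 CPM at P1 and 913, 803 and 860 CPM at P6. Its change of -0.13 ± 0.04 (adjusted p = 0.0330) was lost without the vehicle library of P1 (adjusted p = 0.126) or P6 (0.147) and without the α-amyrin library of P1 (0.0873) or P6 (0.105), and with passage as the only term (0.177). The growth hormone receptor gene Ghr was at -0.03 ± 0.05 (adjusted p = 0.651).

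Among IGFBP proteases and their inhibitors, 8 of 14 tested genes were higher and 5 lower, with a median of 0.39. Pappa, the protease that cleaves IGFBP4, rose from 177, 94.0 and 138 CPM to 312, 283 and 313 CPM (1.20 ± 0.13, adjusted p = 0.000259). Stc2, whose protein inhibits PAPP-A, fell by 2.06 ± 0.10 (adjusted p = 1.17e-05), and its relative Stc1 rose by 0.80 ± 0.09. Adam12, a metalloprotease that cleaves IGFBP3 and IGFBP5, fell by 2.07 ± 0.06 (adjusted p = 2.50e-06). Ctsd, a lysosomal protease, rose by 1.55 ± 0.12 (adjusted p = 5.09e-05). It is also highly expressed in macrophages, and their part in its rise was not tested. Pappa was lowest with α-amyrin at each passage, as were Igfbp7 and several other genes of this list, Adam12 and Stc1 among them.

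Relatives that carry the IGFBP domain moved both ways, 2 higher and 4 lower of 8 tested (median -0.13). They were led by the matricellular genes Ccn3 (-1.56 ± 0.05, adjusted p = 3.98e-06), Ccn5 (1.87 ± 0.10, adjusted p = 1.85e-05) and Ccn4 (-1.18 ± 0.07, adjusted p = 2.59e-05). Of the 12 cell-surface partners 5 were higher and 3 lower (median 0.13). Gpc3, a glypican that restrains growth, fell by 2.80 ± 0.07 (adjusted p = 1.18e-06) and Ptprb, a phosphatase gene of endothelial cells, by 2.14 ± 0.10 (adjusted p = 1.17e-05). Lrp1, a large endocytic receptor, rose by 0.73 ± 0.05 (adjusted p = 2.97e-05).

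Inside the cell, 5 of 16 tested adaptors and proximal regulators were higher and 7 lower (median 0.0022). The receptor substrates Irs1 (-0.45 ± 0.06, adjusted p = 0.000496) and Irs2 (-0.67 ± 0.06, adjusted p = 0.000118) both fell, Irs1 from 117, 131 and 129 CPM to 93.3, 88.7 and 93.8 CPM. Grb10 and Grb14, related adaptors that dampen the insulin and IGF1 receptors, went apart, at -0.74 ± 0.04 (adjusted p = 2.20e-05) and 0.93 ± 0.08 (adjusted p = 7.91e-05). Rack1, a scaffold that binds the IGF1 receptor, fell by 0.56 ± 0.05 (adjusted p = 9.02e-05). In the PI3K-AKT-mTOR arm 11 of 29 were higher and 4 lower (median 0.07). The smallest p-values were those of Pik3cd (1.47 ± 0.08, adjusted p = 1.83e-05), Eif4ebp1 (-0.70 ± 0.05, adjusted p = 6.25e-05) and Rictor (0.68 ± 0.06, adjusted p = 9.05e-05). Pik3cd encodes the PI3K catalytic subunit of leukocytes, and the macrophage markers above were also higher at P6. It was at 11.6, 12.0 and 8.68 CPM at P1 and at 33.3, 29.9 and 25.8 CPM at P6. The part of such cells in its rise was not tested.

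FoxO factors are restrained by AKT when IGF receptors are active. Of 16 tested FoxO genes and genes that FoxO activates, 7 were higher and 2 lower (median 0.25), and the 9 called of 16 are close to the 59.2% called of all genes. The stress-response gene Sesn3 rose by 0.78 ± 0.05 (adjusted p = 2.41e-05), the repressor gene Bcl6 by 0.88 ± 0.06 (adjusted p = 4.42e-05) and Pik3ip1, an inhibitor of PI3K, by 1.02 ± 0.07 (adjusted p = 5.00e-05). Foxo3 rose by 0.20 ± 0.04 (adjusted p = 0.00729) and Foxo1 was at -0.01 ± 0.07 (adjusted p = 0.935). With the compounds no gene of the 7 lists was called by edgeR. An unadjusted p below 0.05 was found for 25 of the 101 with α-amyrin (24.8%, beside 11.8% of all genes) and for 14 with β-amyrin (13.9%, beside 10.3%). It was found for 24 between the isomers (23.8%, beside 9.21%) and for 3 for the passage-by-amyrin term (2.97%, beside 2.66%).

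**Figure D5:**
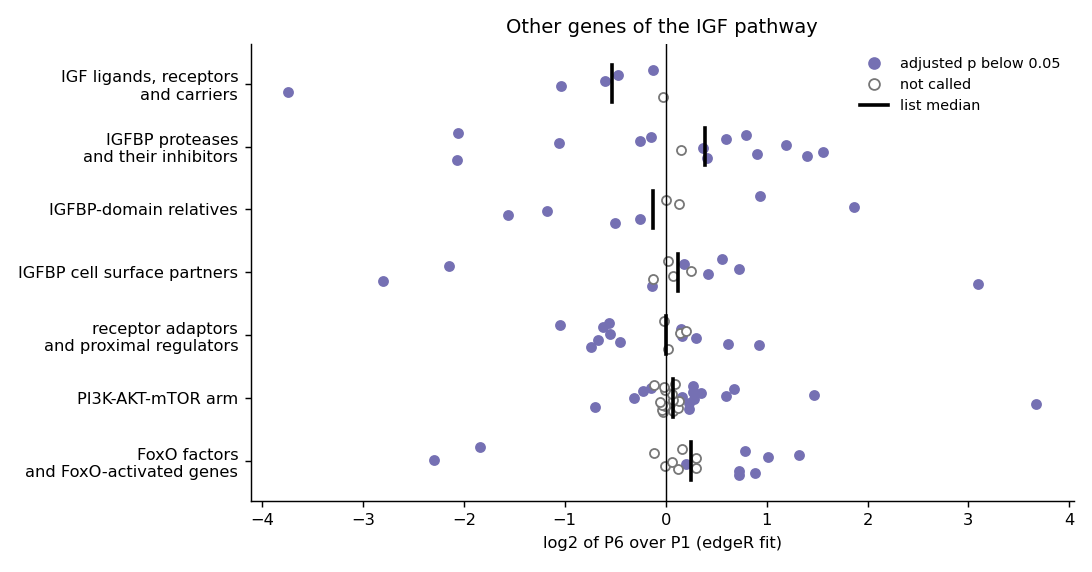
Log2 of P6 over P1 from the edgeR fit (horizontal axis) for the tested genes of 7 lists of the IGF pathway, filled where the adjusted p is below 0.05 and open where it is not, with a black tick at each list's median. List medians run from -0.53 for ligands, receptors and carriers to 0.39 for proteases and their inhibitors, and Igf2 is the point furthest to the left, at -3.74.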

How the data were processed

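The submitters' processing notes name HISAT2 2.1.0 and the mm10 build, featureCounts 1.6.3, SAMtools 1.9, Trimmomatic 0.38 and FastQC 0.11.7, without settings. Deposited values include raw read counts of 55487 genes. The authors also deposited FPKM, which is not a fixed multiple of the counts within a gene and whose making is not stated; FPKM served for levels between genes and for limma alternatives.

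Counts were scaled by TMM (CPM) and tested with edgeR 4.0.16 in R 4.3.3, with passage and treatment as additive terms, after filterByExpr by passage. This left 2 residual degrees of freedom, with 4.83 prior ones and a common biological coefficient of variation of 7.72%. A response that differs between passages counts as error. Errors are SE. Ratios of single libraries used a prior count of 2 and have no p-value. Alternatives used DESeq2 1.42.0, limma 3.58.1, RLE factors, other filters, passage alone and each library left out.

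Named genes were all members, up to 3 per pathway list with the smallest adjusted p, Igf2, Igf2r, Igfbp1, Irs1, Irs2, Pappa, Foxo1 and Foxo3, the nearest neighbours and the 2 genes most like each member. Ghr, Stc1, Polr2b and the levels of Deptor were added after values were seen. The members and lists were chosen with earlier results of these data known.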

Additional observations from a re-analysis of the deposited data

How the results depend on the processing

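No paired analysis was possible by replicate number because each condition has 1 library and the labels give no replicate numbers. The treatment term of the fit sets P6 against P1 within each treatment, and without it, with passage alone, Igfbp2 and Igf2r lost their calls. The count of members called between P6 and P1 was 6 to 8 in every alternative, and the log2 fold changes of Igf1, Igfbp5, Igfbp6, Igfbp7 and Igf1r kept their direction and call in all of them. For α-amyrin against vehicle, members called were 0 in the main analysis, 1 with DESeq2, 3 without the filter and 0 to 2 with a library left out. For α-amyrin against β-amyrin they were 0, then 3 with DESeq2, 3 without the filter and 0 to 1 with a library left out. For the passage-by-amyrin term 1 was called without the filter, and a library could be left out only among the 4 amyrin libraries. Genes called in the 7 pathway lists together, 0 in each compound comparison, became 7 (DESeq2), 13 (no filter) and 0 to 10 (a library left out) for α-amyrin. They became 3 (no filter) and 0 to 4 (a library left out) for β-amyrin, 4, 14 and 0 to 10 between the isomers, and 1 (DESeq2) and 4 (no filter) for the passage-by-amyrin term. Over all genes the calls were 5 for α-amyrin (194 with DESeq2, 464 without the filter, 0 with the stricter filter of CPM at least 1 in 3 libraries or limma, and 0 to 367 with a library left out). They were 1 for β-amyrin (3 with RLE, 114, 404, 0 and 0 to 317), 10 between the isomers (119, 484, 6 with the stricter filter, 0 with limma and 0 to 439) and 0 for the passage-by-amyrin term (21, 159 and 0 to 16). Among the fits that left out a library, calls over all genes were most numerous without a β-amyrin library, at 332 (P1) and 367 (P6) for α-amyrin, 233 and 317 for β-amyrin, and 188 and 439 between the isomers. Without the P1 vehicle library they were 25, 26 and 4, and without the P1 α-amyrin library 0 in each. The cause of these differences was not tested.

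Log2 fold changes that reversed did so only when a library was left out, and none was called where reversed. With a library left out the ranges were -0.0063 to 0.29 for Igfbp4 and -0.081 to 0.028 for Foxo1 between P6 and P1. With α-amyrin they were -0.18 to 0.41 for Igfbp3 and -0.13 to 0.29 for Igfbp5. With β-amyrin they were -0.39 to 0.21 for Igfbp3, -0.26 to 0.21 for Igfbp4, -0.37 to 0.045 for Igfbp5, -0.088 to 0.049 for Igfbp7, -0.026 to 0.060 for Igf1r and -0.11 to 0.094 for Insr. Between the isomers they were -0.38 to 0.080 for Igfbp2, -0.085 to 0.48 for Igfbp3 and -0.11 to 0.16 for Igfbp6. For the passage-by-amyrin term they were -0.029 to 0.31 for Igfbp7, -0.32 to 0.044 for Igf1 and -0.12 to 0.039 for Igf1r. Binding-protein shares moved by less than the spread among libraries when CPM per kilobase of annotated exon length replaced FPKM, an alternative chosen after seeing the data, in 11 of 12 cases, the exception being Igfbp2 at P1.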
